A study of Homo sapiens with 20 samples.

Results

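FAS and 8 other members of the tumour necrosis factor (TNF) receptor family were followed in K562, a human erythroleukemia cell line, across all 20 RNA-seq libraries of a study of drugs and genome edits. The members are FAS, TNFRSF1A, TNFRSF1B, TNFRSF9, TNFRSF10A, TNFRSF10B, TNFRSF12A, TNFRSF21 and NGFR, and they are 9 of 58652 gene identifiers in the deposited tables. Each symbol was matched to its Ensembl identifier, and its gene counts (drug libraries) or summed estimated counts (excision libraries) were read. The 9 were chosen by their gene-level counts in these libraries, which were already known, so their levels and fold changes are given as a description. All 9 passed the filter on low counts in each arm.

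The drug arm has 12 libraries, 2 in each of 6 groups. K562 cells received the EZH2 inhibitor GSK343 (5 uM) for 72 h, the REST inhibitor X5050 (100 uM) for 72 h, or both drugs at those doses for 8, 24 or 72 h, and the reference was the vehicle DMSO for 72 h. EZH2 is the methyltransferase of Polycomb repressive complex PRC2, and REST is a repressor of neuronal genes. The excision arm has 8 libraries, 2 in each of 4 groups: K562 cells from which CRISPR had removed silencer 1 (S1KO), silencer 2 (S2KO) or both (DKO), and empty-vector cells (EV). The labels do not say whether an excised line is a clone or a pool, nor that replicates are separate cultures, so p-values measure the spread between these libraries, which may be technical. DMSO libraries exist at 72 h only. In the comparisons of 8 h and 24 h with DMSO, the drugs and the length of treatment therefore cannot be told apart.

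Receptors of this family sit in the plasma membrane and bind trimeric ligands. Some carry a cytoplasmic death domain that recruits adaptors such as FADD and initiator caspases, and others bind TRAF adaptors and activate NF-kB, the transcription factor family that in turn induces many genes of the same pathway. FAS and the TRAIL receptors TNFRSF10A and TNFRSF10B are known for starting apoptosis in blood cells, and TNFRSF9 (4-1BB, CD137) is known as a costimulatory receptor of activated T cells.

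The drug libraries hold 22925617 to 38177320 gene counts, and the excision libraries 55913561 to 98507788 gene-level estimated counts. Levels are CPM, the share of a library's counts scaled by TMM factors within each arm, so levels are not compared between arms. A gene is called where edgeR's quasi-likelihood test gave an adjusted p under 0.05 over all genes of its arm. In the 8 h and 24 h libraries 10.8% to 13.3% of reads mapped to several places, against 19.0% to 20.8% in the DMSO, GSK343 and X5050 libraries and 26.7% and 26.1% with both drugs at 72 h. The time of treatment and this difference between libraries cannot be told apart, and its part in the values of both drugs at 8 h, 24 h or 72 h was not tested. Summed over 8 genes, erythroid markers had 1390 to 1890 CPM with GSK343, 2360 to 4840 CPM with X5050 and 1870 to 2010 CPM in DMSO. With both drugs they had 4250 to 4730 CPM at 8 h, 4820 to 4850 CPM at 24 h and 3630 to 4640 CPM at 72 h. The sums do not describe each marker. Of the 8, 4 rose and 1 fell at 8 h, 3 rose and 4 fell at 24 h, and 4 rose and 4 fell at 72 h. Of all tested genes 21.8% rose and 21.2% fell at 8 h, 22.0% and 21.1% at 24 h, and 19.2% and 17.3% at 72 h. The part of the erythroid markers in the receptors' values was not tested. Lymphoid marker genes summed to 4.46 to 18.9 CPM over all libraries, and the B cell marker MS4A1 was at 0 in both arms. Fibroblast and epithelial markers (9 genes) had 654 to 735 CPM with GSK343, 467 to 528 CPM with X5050 and 485 to 522 CPM in DMSO, and with both drugs 402 to 455 CPM at 8 h, 1080 to 1120 CPM at 24 h and 915 to 1000 CPM at 72 h; PDGFRA among them was at 0 in all drug-arm libraries. Myeloid markers (6 genes) had 24.8 to 34.5 CPM with GSK343, 12.8 to 14.1 CPM with X5050 and 17.5 to 22.2 CPM in DMSO. With both drugs their sum was 17.5 to 18.4 CPM at 8 h, 22.5 to 23.3 CPM at 24 h and 15.7 to 16.3 CPM at 72 h. Of these 6, 3 rose and 1 fell at 72 h against DMSO, beside 19.2% and 17.3% of all genes, although the sum lay below DMSO. The part of these lists in the receptors' values was not tested. In bulk RNA, a change in the share of cells that express a receptor and a change in RNA per cell cannot be told apart.

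Against DMSO, the called members were all higher. There were 6 of 9 with GSK343, where 12.4% of all tested genes were called (9.12% higher and 3.31% lower), and 5 of 9 with X5050, where 12.6% were called (5.34% higher and 7.23% lower). With both drugs there were 5 of 9 at 8 h, where 43.0% of all genes were called (21.8% higher and 21.2% lower), and 6 of 9 at 24 h, where 43.1% were called (22.0% higher and 21.1% lower). At 72 h there were 3 of 9, beside 36.4% of all genes (19.2% higher and 17.3% lower). The members' median log2 fold change was 0.71 with GSK343, 0.46 with X5050, 0.55 at 8 h, 1.52 at 24 h and 0.16 at 72 h, beside medians over all tested genes of between -0.03 and 0.01. TNFRSF9, TNFRSF12A and TNFRSF1A were called higher in all 5 of these comparisons, which share their DMSO libraries, but the TNFRSF1A call at 8 h was lost without DMSO replicate 2 and with only the groups compared. Nothing is read from these counts, because the members were chosen with the same values known.

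**Figure D1:**
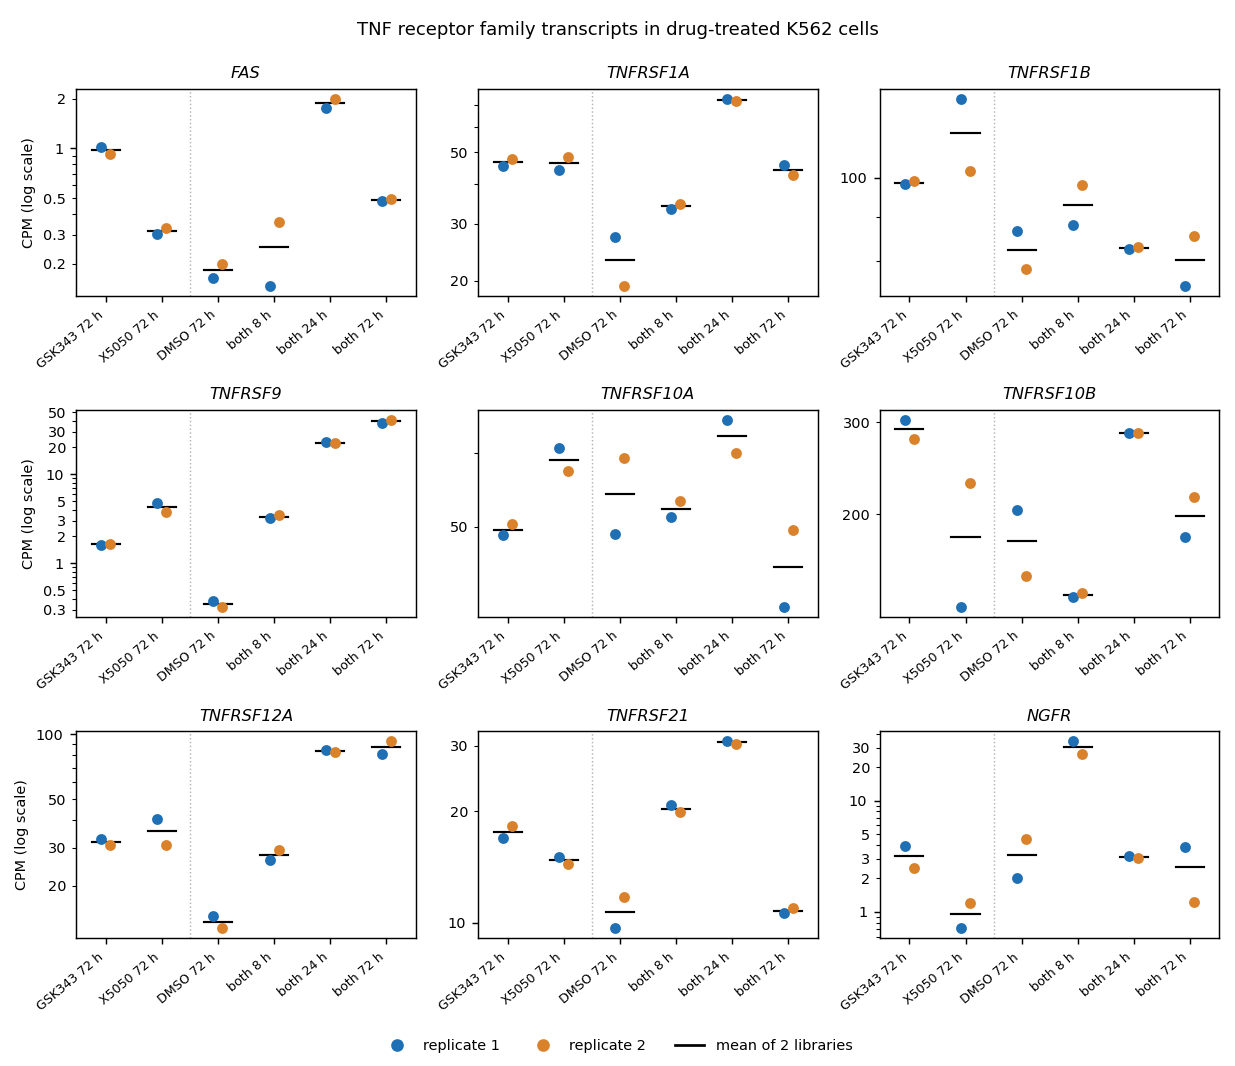
CPM of the 9 receptors in each drug-arm library (log axis, 1 point per library, bar at the mean of 2 libraries), with single drugs left of the dotted line and DMSO followed by 8, 24 and 72 h of both drugs right of it. TNFRSF9 climbs to 37.4 and 41.0 CPM at 72 h, FAS and TNFRSF21 are highest at 24 h, and NGFR is high at 8 h alone.

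FAS, the CD95 death receptor that binds FAS ligand, was nearly silent in vehicle and highest at 24 h. It had 1.03 and 0.925 CPM with GSK343, 0.305 and 0.329 CPM with X5050, and 0.165 and 0.200 CPM in DMSO. Cells given both drugs had 0.146 and 0.357 CPM at 8 h, 1.76 and 2.00 CPM at 24 h and 0.481 and 0.496 CPM at 72 h. Both 24 h libraries lay above all others, followed by both GSK343 libraries, while the 8 h and DMSO libraries overlapped. These levels rest on few reads, with 55 and 60 counts at 24 h, 29 and 30 with GSK343, and 4 and 5 in DMSO. The log2 fold change over DMSO was 2.39 ± 0.51 (SE, n = 2 each) with GSK343 and 3.33 ± 0.49 at 24 h, both called. It was 1.40 ± 0.56 at 72 h and 0.78 ± 0.58 with X5050, neither called. The 72 h value is called with the GC trend removed (1.56) or with unstranded counts (1.79). Reads on the opposite strand of FAS, 7 and 9 at 24 h and 3 and 6 in DMSO, were 11.3% and 13.0% of its reads at 24 h and 42.9% and 54.5% in DMSO, against 9.29% to 11.1% of all gene counts in those libraries.

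The TRAIL receptors were both above 40 CPM in every drug-arm library. TNFRSF10B (DR5) had 303 and 279 CPM with GSK343, 133 and 229 CPM with X5050, and 204 and 153 CPM in DMSO. Under both drugs TNFRSF10B had 139 and 141 CPM at 8 h, 287 and 286 CPM at 24 h and 181 and 216 CPM at 72 h. The GSK343 and 24 h libraries stood above those of DMSO, and the X5050 libraries spanned the DMSO range. The log2 fold changes were 0.71 ± 0.21 with GSK343 and 0.69 ± 0.21 at 24 h, called. The GSK343 call was lost with any of the 4 libraries compared left out, and the 24 h call with DMSO replicate 2 or either 24 h library left out. The stress gene CHAC1 varied between libraries of a group in the same way, at 18.6 and 59.8 CPM with X5050 and 53.1 and 6.76 CPM in DMSO. CHAC1 is 1 of 9 stress response genes and was named after its values were seen. The others are not given by library for this arm, and the part of these genes in the TNFRSF10B values was not tested. TNFRSF10A (DR4) was between 41.0 and 65.2 CPM in all 12 libraries and was not called against DMSO in any of the 5 comparisons. Its highest mean was at 24 h (62.6 ± 3.67 CPM, SD, n = 2) and its lowest at 72 h (45.3 ± 6.12 CPM), a log2 difference of -0.47 ± 0.12 that was called, though not without replicate 1 of either group.

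TNFRSF1A, the widely expressed TNF receptor with a death domain, was higher after every treatment. It had 45.3 and 47.6 CPM with GSK343, 44.2 and 48.3 CPM with X5050, and 27.3 and 19.3 CPM in DMSO. With both drugs it had 33.4 and 34.6 CPM at 8 h, 73.2 and 72.1 CPM at 24 h and 45.8 and 42.6 CPM at 72 h. No treated library overlapped DMSO, the 24 h libraries were the highest, and the 3 groups treated for 72 h overlapped one another. Log2 fold changes were 0.55 ± 0.14 at 8 h, the call that leaving out DMSO replicate 2 ended, 1.00 ± 0.14 with GSK343, 0.99 ± 0.14 with X5050, 1.64 ± 0.14 at 24 h and 0.92 ± 0.14 at 72 h. On the log2 scale the combination at 72 h lay 1.06 ± 0.20 below the sum of the single-drug effects (interaction log2 -1.06, called).

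TNFRSF21 (DR6), a death domain receptor with roles in the nervous and immune systems, was also highest at 24 h but was back at the vehicle level at 72 h. It had 17.0 and 18.2 CPM with GSK343, 15.1 and 14.4 CPM with X5050, and 9.66 and 11.8 CPM in DMSO. With both drugs it had 20.8 and 19.9 CPM at 8 h, 30.9 and 30.4 CPM at 24 h and 10.6 and 11.0 CPM at 72 h. The 72 h libraries lay inside the DMSO range, and all other treated libraries lay above it. The log2 difference of 72 h from 24 h was -1.51 ± 0.14, and the interaction of the drugs at 72 h was -1.16 ± 0.20, both called. The X5050 call (0.46 ± 0.14) was lost in 4 of 8 other settings and with 3 of the 4 libraries left out in turn. The GSK343 call (0.715 ± 0.143) was lost with only the groups compared and without GSK343 replicate 2.

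NGFR (p75NTR), the death domain receptor of neurotrophins, was high at 8 h alone. With both drugs it had 34.5 and 26.2 CPM at 8 h, 3.17 and 3.04 CPM at 24 h and 3.85 and 1.22 CPM at 72 h. It had 3.93 and 2.50 CPM with GSK343, 0.712 and 1.21 CPM with X5050, and 2.02 and 4.48 CPM in DMSO. The 8 h libraries did not overlap any other group, and the X5050 libraries were the lowest, just under the lower 72 h library. The log2 fold change over DMSO was 3.22 ± 0.47 at 8 h, and 24 h differed from 8 h by -3.29 ± 0.46, both called. The opposite strand held 11.4% of NGFR reads in each 8 h library, near the 10.5% and 10.8% of all gene counts there. X5050 differed from DMSO by -1.77 ± 0.55 and was not called, though it was by DESeq2, with no filter, and without DMSO replicate 1.

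TNFRSF9, which has no death domain and signals through TRAF1 and TRAF2, showed the widest range of the 9 in the drug arm. It had 1.59 and 1.67 CPM with GSK343, 4.75 and 3.80 CPM with X5050, and 0.371 and 0.320 CPM in DMSO. With both drugs it had 3.19 and 3.47 CPM at 8 h, 22.9 and 22.2 CPM at 24 h and 37.4 and 41.0 CPM at 72 h. No group overlapped another, so that the order of the 6 groups was the same in every pair of libraries. The log2 fold changes over DMSO were 2.23 ± 0.29 with GSK343, 3.62 ± 0.26 with X5050 and 6.81 ± 0.24 with both drugs at 72 h, called in each case. The 72 h libraries held 854 and 1076 counts and DMSO 9 and 8. The combination at 72 h exceeded GSK343 by 4.58 ± 0.19 and X5050 by 3.19 ± 0.17, both called. The interaction was 0.97 ± 0.37 and was not called, so the excess over the sum of the single drugs was not separated from the error.

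TNFRSF12A (Fn14), the receptor of TWEAK, and TNFRSF1B, the TNF receptor without a death domain, differed in response. TNFRSF12A had 32.8 and 30.8 CPM with GSK343, 40.7 and 30.8 CPM with X5050, and 14.5 and 12.7 CPM in DMSO. Both drugs gave 26.3 and 29.2 CPM at 8 h, 84.7 and 82.5 CPM at 24 h and 80.8 and 93.1 CPM at 72 h. All treated libraries lay above DMSO, and the 24 h and 72 h libraries overlapped. The log2 fold change over DMSO was 2.62 ± 0.15 at 24 h and 2.68 ± 0.15 at 72 h, and the combination at 72 h exceeded GSK343 by 1.45 ± 0.14 and X5050 by 1.28 ± 0.14, all called. The difference of 72 h from 24 h was 0.06 ± 0.13, but with the GC trend removed it was -0.77 and called, so the plateau depends on that setting. TNFRSF1B stayed between 74.9 and 123 CPM in all 12 libraries. It was called in X5050 alone among the 5 comparisons with DMSO, at 123 and 102 CPM against 86.7 and 78.4 CPM, a log2 fold change of 0.45 ± 0.12 that was lost without X5050 replicate 1 or DMSO replicate 2. With the GC trend removed TNFRSF1B was also called at 8 h (0.52) and 24 h (0.34).

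**Figure D2:**
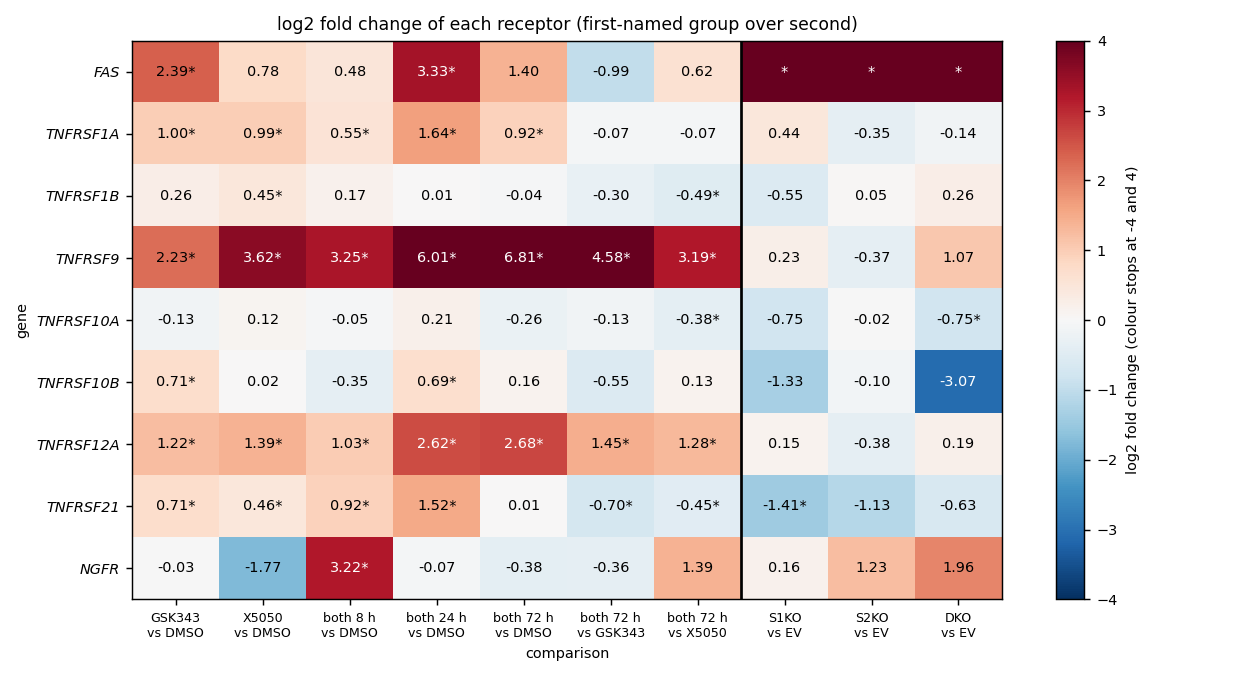
Log2 fold change of each receptor (rows) in 10 comparisons (columns), first-named group over second, with colour limited to between -4 and 4 and an asterisk where the gene was called. Values for FAS against EV are left blank because EV held 2 counts in all; TNFRSF9 reaches 6.81 at 72 h of both drugs.

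The combination at 72 h was also set against each single drug. Against GSK343, 3 of 9 members were called (39.4% of all genes called, 18.9% higher and 20.5% lower): TNFRSF9 and TNFRSF12A were higher and TNFRSF21 was lower. Against X5050, 5 of 9 were called (30.3% of all genes, 17.5% higher and 12.8% lower), with the same pair higher and TNFRSF1B (-0.49 ± 0.12), TNFRSF10A (-0.38 ± 0.12) and TNFRSF21 (-0.45 ± 0.14) lower. All 3 of these lower calls were lost without replicate 1 of both drugs at 72 h, those of TNFRSF10A and TNFRSF21 also without X5050 replicate 1 or with only the 72 h groups fitted, and that of TNFRSF21 also without replicate 2 of both drugs. The interaction was called for 3 of 9 (18.8% of all genes, 9.75% above 0 and 9.04% below), TNFRSF1A, TNFRSF21 and TNFRSF1B (-0.75 ± 0.17), and was negative for each. Between times, 7 of 9 members were called at 24 h against 8 h (35.8% of all genes, 18.4% higher and 17.4% lower), with NGFR lower and the other 6 higher. At 72 h against 24 h, 5 of 9 were called (45.9% of all genes, 24.1% higher and 21.8% lower), with TNFRSF9 higher (0.80 ± 0.15) and FAS (-1.93 ± 0.42), TNFRSF21, TNFRSF1A (-0.72 ± 0.14) and TNFRSF10A lower. TNFRSF10B at 72 h of both drugs was not called against GSK343 (-0.55 ± 0.21) or against 24 h (-0.53 ± 0.21). It was called lower in 6 of 8 other settings of the first comparison and in 5 of 7 of the second.

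TNFRSF9, FAS, TNFRSF1A, TNFRSF10B, TNFRSF12A and TNFRSF21 were called higher with GSK343 and at 24 h. The 250 bases before a start are shown for TNFRSF9 and FAS, chosen because they hold a motif match, and for TNFRSF1A as one without. They come from RefSeq on GRCh38.p14, another build than the hg19 of the deposited tables, and 5 of 9 members matched an entry (FAS, TNFRSF1A, TNFRSF1B, TNFRSF9 and TNFRSF21). Capitals mark matches on either strand to the NF-kB motif or to the AP-1 motif TGAGTCA.
TNFRSF9, chr1:7940840-7941089, minus strand: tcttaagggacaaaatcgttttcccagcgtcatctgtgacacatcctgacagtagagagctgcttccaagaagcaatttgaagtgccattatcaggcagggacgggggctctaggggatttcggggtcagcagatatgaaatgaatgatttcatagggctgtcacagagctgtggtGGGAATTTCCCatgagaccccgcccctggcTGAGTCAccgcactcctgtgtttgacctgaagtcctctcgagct
FAS, the start annotated last, chr10:88991181-88991430, plus strand: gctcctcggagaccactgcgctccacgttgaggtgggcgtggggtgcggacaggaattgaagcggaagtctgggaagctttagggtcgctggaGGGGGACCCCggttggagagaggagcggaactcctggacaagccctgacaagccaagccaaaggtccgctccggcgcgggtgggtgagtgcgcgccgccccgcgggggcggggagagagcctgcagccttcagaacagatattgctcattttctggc
TNFRSF1A, chr12:6342077-6342326, minus strand: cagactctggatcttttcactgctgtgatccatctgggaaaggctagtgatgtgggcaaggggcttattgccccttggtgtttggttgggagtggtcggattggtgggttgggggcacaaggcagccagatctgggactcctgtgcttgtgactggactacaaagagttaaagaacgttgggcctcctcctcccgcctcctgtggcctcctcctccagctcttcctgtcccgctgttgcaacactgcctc
The TNFRSF9 sequence held 2 overlapping NF-kB matches, the first beginning 74 bases before the start, and 1 AP-1 match beginning 44 bases before it. This FAS start had 1 NF-kB match beginning 157 bases before it, and the other 2 FAS starts had no match to either motif. TNFRSF1A, TNFRSF21 and TNFRSF1B had no match to either. In windows of 300 bases (250 before and 50 after the start), 11.3% of 35116 RefSeq promoters held the NF-kB motif and 4.95% held the AP-1 motif. A match is a description of letters, and no binding was measured.

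The genes that encode NF-kB and its inhibitors were called most often with both drugs at 72 h. Of 9 NF-kB subunit and inhibitor genes, all 9 rose with both drugs at 72 h against DMSO, against GSK343 and against X5050. Of all tested genes, 19.2%, 18.9% and 17.5% rose in these comparisons. The interaction was also called above 0 for all 9, beside 9.75% of all genes. At 24 h 8 of 9 rose (22.0% of all genes), with X5050 4 rose (5.34%) and with GSK343 1 rose (9.12%). At 8 h 4 rose and 2 fell, beside 21.8% and 21.2% of all genes. RELB, a subunit of the non-canonical pathway, had 62.8 and 86.7 CPM at 72 h of both drugs, 10.8 and 11.1 CPM with X5050, 2.30 and 3.95 CPM with GSK343, and 1.57 and 1.72 CPM in DMSO. Its log2 fold change at 72 h was 5.50 ± 0.26 (edgeR adjusted p = 9.1e-10). NFKBIA, the inhibitor that NF-kB induces as feedback, had 199 and 336 CPM at 72 h against 13.5 and 19.6 CPM in DMSO. BCL3 and NFKB2 were the genes that fell at 8 h, by 1.42 ± 0.31 and 0.90 ± 0.14 on the log2 scale, and both rose at 72 h. Within the list the median log2 fold change was 0.03 with GSK343 and 0.50 with X5050, and with both drugs 0.23 at 8 h, 0.79 at 24 h and 1.95 at 72 h, beside medians near 0 over all genes.

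**Figure D3:**
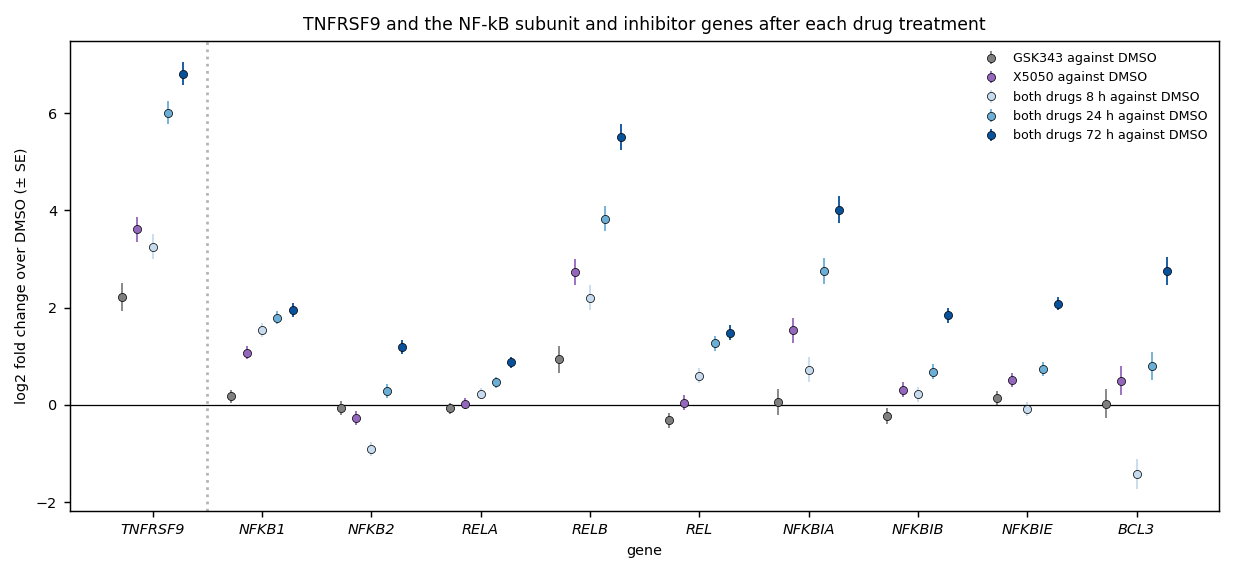
Log2 fold change over DMSO (points, with bars of ± 1 SE, n = 2 libraries a group) of TNFRSF9, left of the dotted line, and the 9 NF-kB genes after each of 5 treatments. RELB reaches 5.50 and TNFRSF9 6.81 at 72 h of both drugs, where all 9 NF-kB genes lie above 0.

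Among the ligands, 11 of 22 genes passed the filter on low counts. Of those, 6 rose at 72 h of both drugs, 3 with GSK343 and 1 with X5050, beside 19.2%, 9.12% and 5.34% of all genes. TNFSF9, the ligand of TNFRSF9, had 60.5 and 52.5 CPM at 72 h, 18.3 and 23.1 CPM with GSK343, 16.5 and 12.1 CPM with X5050, and 11.4 and 13.0 CPM in DMSO. It rose by 2.21 ± 0.17 at 72 h and by 0.76 ± 0.17 with GSK343 on the log2 scale (edgeR adjusted p = 1.1e-07 and 0.0075). TNF, the ligand of TNFRSF1A and TNFRSF1B, had 104 and 83 counts at 72 h and 0 and 1 in DMSO, a ratio of 188 with a 95% counting interval of 33.3 to 7449. It also rose with each single drug, at 8 h and at 24 h. TNFSF15, a ligand of the death receptor DR3, had 58 and 31 counts at 72 h and 0 in both DMSO libraries, and was at least 29.8-fold higher with DMSO set to 3 counts for the group. FASLG, the FAS ligand, had 1 count in each 24 h library and 0 in the other 10 drug-arm libraries. TNFSF10 (TRAIL) had at most 30 counts in any drug-arm library.

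Further down the pathway, TRAF1, the adaptor of TNFRSF9, had 166 and 105 counts at 72 h against 0 and 1 in DMSO, a ratio of 272 with a 95% counting interval of 48.4 to 10780. Of 19 tested TRAF and kinase adaptor genes 9 rose and 3 fell at 72 h, beside 19.2% and 17.3% of all genes. BIRC3, an inhibitor of apoptosis that binds TRAF2, rose by 2.29 ± 0.26, and TNFAIP3 (A20), an NF-kB feedback inhibitor, rose by 3.56 ± 0.37. Of 14 tested death domain signalling genes, 4 rose with GSK343 and 4 with X5050, beside 9.12% and 5.34% of all genes. At 24 h 9 rose and 2 fell, beside 22.0% and 21.1% of all genes. At 72 h 6 rose and 0 fell, beside 19.2% and 17.3%. CFLAR (cFLIP), which blocks caspase-8 at the receptor, had 288 and 302 CPM at 24 h and 105 and 122 CPM at 72 h, against 123 and 109 CPM in DMSO. It peaked at 24 h as FAS did, with a log2 rise over DMSO of 1.34 ± 0.12 (edgeR adjusted p = 2.6e-07). FADD, the adaptor of FAS and the TRAIL receptors, rose by 0.62 ± 0.15 with GSK343 and 0.71 ± 0.15 with X5050, and CASP8 rose by 1.01 ± 0.14 at 24 h. ADAM17, the protease that sheds TNF and TNFRSF1A from the membrane, had 350 and 349 CPM at 24 h and 138 and 137 CPM at 72 h, against 75.2 and 70.5 CPM in DMSO, and was called higher in all 5 comparisons with DMSO.

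Other receptors of the superfamily did not follow one course. Of 20 such genes 10 were tested in the drug arm. At 72 h 5 rose and 2 fell, beside 19.2% and 17.3% of all genes, and at 8 h 5 fell, beside 21.2%. TNFRSF14 (HVEM) had 1.11 and 1.44 CPM in DMSO, and with both drugs 0.117 and 0.332 CPM at 8 h, 0.480 and 0.768 CPM at 24 h and 16.9 and 19.0 CPM at 72 h. It fell by 2.45 ± 0.44 at 8 h and rose by 3.81 ± 0.33 at 72 h on the log2 scale (edgeR adjusted p = 0.00031 and 3.1e-07). TNFRSF8 (CD30) fell by 1.39 ± 0.19 at 72 h, and CD40 rose by 1.25 ± 0.27 at 72 h and by 1.06 ± 0.27 with GSK343.

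FAS and TNFRSF10B are known p53 targets in other cells, and K562 is known to lack functional p53. Of 15 tested p53 target genes that are not members, 4 rose with GSK343 and 4 with X5050, beside 9.12% and 5.34% of all genes. With both drugs 7 rose and 4 fell at 8 h, 7 rose and 3 fell at 24 h, and 8 rose and 3 fell at 72 h. Of all genes 21.8% rose and 21.2% fell at 8 h, 22.0% and 21.1% at 24 h, and 19.2% and 17.3% at 72 h. CDKN1A (p21) had 92.4 and 90.9 CPM with GSK343 against 17.5 and 17.7 CPM in DMSO, a log2 rise of 2.38 ± 0.14. TNFRSF10B is also induced by DDIT3 (CHOP) in the integrated stress response. Of 9 genes of that response, DDIT3 (0.57 ± 0.14) and ATF3 (1.12 ± 0.27) rose and PPP1R15A fell with GSK343, where TNFRSF10B was higher. At 24 h 3 of 9 rose and 1 fell, and at 72 h 4 rose and 2 fell. Of all genes 12.4% were called with GSK343, 43.1% at 24 h and 36.4% at 72 h. The part of p53 or of the stress response in the receptors' values was not tested. Of the NGFR partner genes 7 were tested, and at 8 h, when NGFR was high, 4 fell, among them SORCS1 (-2.08 ± 0.21), beside 21.2% of all genes.

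The genes whose levels tracked FAS most closely over the 12 drug-arm libraries were AKAP12, CA13, MDGA1, LIMA1 and ARHGAP6, out of 10860 protein-coding genes that averaged 2 CPM or more. Their Pearson correlations of log2(CPM + 1) with FAS were 0.949, 0.941, 0.935, 0.932 and 0.923, given as a description because libraries of a group share their treatment. AKAP12, a kinase anchoring protein, averaged 2.94 CPM with GSK343 and 15.7 CPM at 24 h, against 0.549 CPM in DMSO. For TNFRSF9 the nearest was TRIB1 (0.986), for TNFRSF21 PRKAR1A (0.972), for TNFRSF10A NUP93 (0.967) and for NGFR CAPN5 (0.953). For TNFRSF1A it was STXBP5 (0.944), for TNFRSF1B TMEM177 (0.926) and for TNFRSF10B B4GALT1 (0.924). CAPN5, a calpain protease, averaged 28.9 CPM at 8 h against 1.96 CPM in DMSO.

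In the excision arm, libraries with replicate number 2 stood apart in S1KO, S2KO and EV but not in DKO. The stress gene DDIT3 was 4.00, 4.48 and 4.36 times higher in replicate 2 than in replicate 1 of S1KO, S2KO and EV, and 0.947 times in DKO. Values are therefore also given by replicate. Erythroid marker genes summed to 6230 to 11900 CPM in S1KO, 4350 to 9990 CPM in S2KO and 10900 to 13000 CPM in DKO, against 2530 to 6140 CPM in EV. Myeloid markers summed to 74.4 to 90.8 CPM in S1KO, 21.7 to 24.3 CPM in S2KO and 69.9 to 82.7 CPM in DKO, against 51.5 to 59.0 CPM in EV, and the part of either list in the receptors' values was not tested. In S1KO 2 of 9 members were called, beside 3.67% of all tested genes (2.44% higher and 1.23% lower). In S2KO 1 of 9 was called, beside 2.01% of all genes (1.45% higher and 0.554% lower), and in DKO 2 of 9, beside 8.76% (5.41% higher and 3.35% lower). These comparisons share the EV libraries. The DKO libraries held 55913561 and 59444378 estimated counts, against 76457904 to 98507788 in the other groups. The double excision and this difference between libraries cannot be told apart, and its part in the DKO values was not tested.

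FAS was higher in every excised library. S1KO libraries had 1.17 and 1.08 CPM, S2KO libraries 1.15 and 2.33 CPM and DKO libraries 3.13 and 2.94 CPM, against 0 and 0.0239 CPM in EV. The estimated counts of FAS were 114 and 101 for S1KO, 89 and 177 for S2KO and 183 and 182 for DKO, against 0 and 2 for EV. The DKO libraries were the highest, S1KO and S2KO overlapped, and EV was near 0 in both replicates. The ratios to EV were 91.3 in S1KO (95% counting interval 24.98 to 759), 141 in S2KO (38.6 to 1169) and 247 in DKO (67.9 to 2046), and these intervals cover counting error only. FAS was called in all 3 comparisons. The S2KO call was lost when only the S2KO and EV libraries were fitted. Per length, FAS stayed among the low receptors, at 1.42 and 1.11 TPM (the length-corrected unit of the deposited tables) in DKO. TNFRSF1A was at 14.3 and 13.6 TPM in the same DKO libraries. FAS-204, a protein-coding transcript, held 43.7% and 71.9% of FAS TPM in DKO, 34.8% and 48.3% in S1KO and 22.8% and 14.3% in S2KO.

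Genes beside FAS were examined after its values had been seen. Of the 5 protein-coding genes on each side in the GENCODE 29 order, 6 were tested. Called were 2 in S1KO, 0 in S2KO and 3 in DKO, beside 3.67%, 2.01% and 8.76% of all genes. In S2KO LIPA, IFIT2 and IFIT3 had edgeR adjusted p of 0.11, 0.082 and 0.073. IFIT3, an interferon-induced gene, had 3.57 and 3.53 CPM in S1KO, 1.27 and 1.98 CPM in S2KO and 6.999 and 6.64 CPM in DKO, against 0.139 and 0.418 CPM in EV. IFIT2, of the same family, had estimated counts of 60 and 120 for S1KO, 9 and 20 for S2KO and 94 and 80 for DKO, against 0 and 1 for EV. LIPA, the lysosomal acid lipase, had estimated counts of 34 and 41 for S1KO, 14 and 29 for S2KO and 45 and 42 for DKO, against 0 and 3 for EV. These 3 genes lie on 1 side of FAS, and the excised libraries lay above EV for each. CH25H, which lies between them and FAS, had at most 6 estimated counts in any excision library and was not tested. ANKRD22, STAMBPL1 and ACTA2, on the other side, were not called in any of the 3 comparisons, and ANKRD22 had between 5 and 14 estimated counts in every library, EV included. ACTA2, which encodes smooth muscle actin, had estimated counts of 18.0 and 31.9 for S1KO, 32.4 and 81.8 for S2KO and 0 and 5.29 for DKO, against 5.05 and 3.71 for EV (edgeR adjusted p = 0.35, 0.15 and 0.87). In DMSO-treated cells of the drug arm, LIPA had 10 and 4 counts, IFIT2 4 and 5, IFIT3 35 and 36 and FAS 4 and 5. These are counts of another tool in libraries of 23075827 and 26472232 gene counts. The EV libraries held 81110186 and 87678117 estimated counts, so the DMSO and EV values are not compared.

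**Figure D4:**
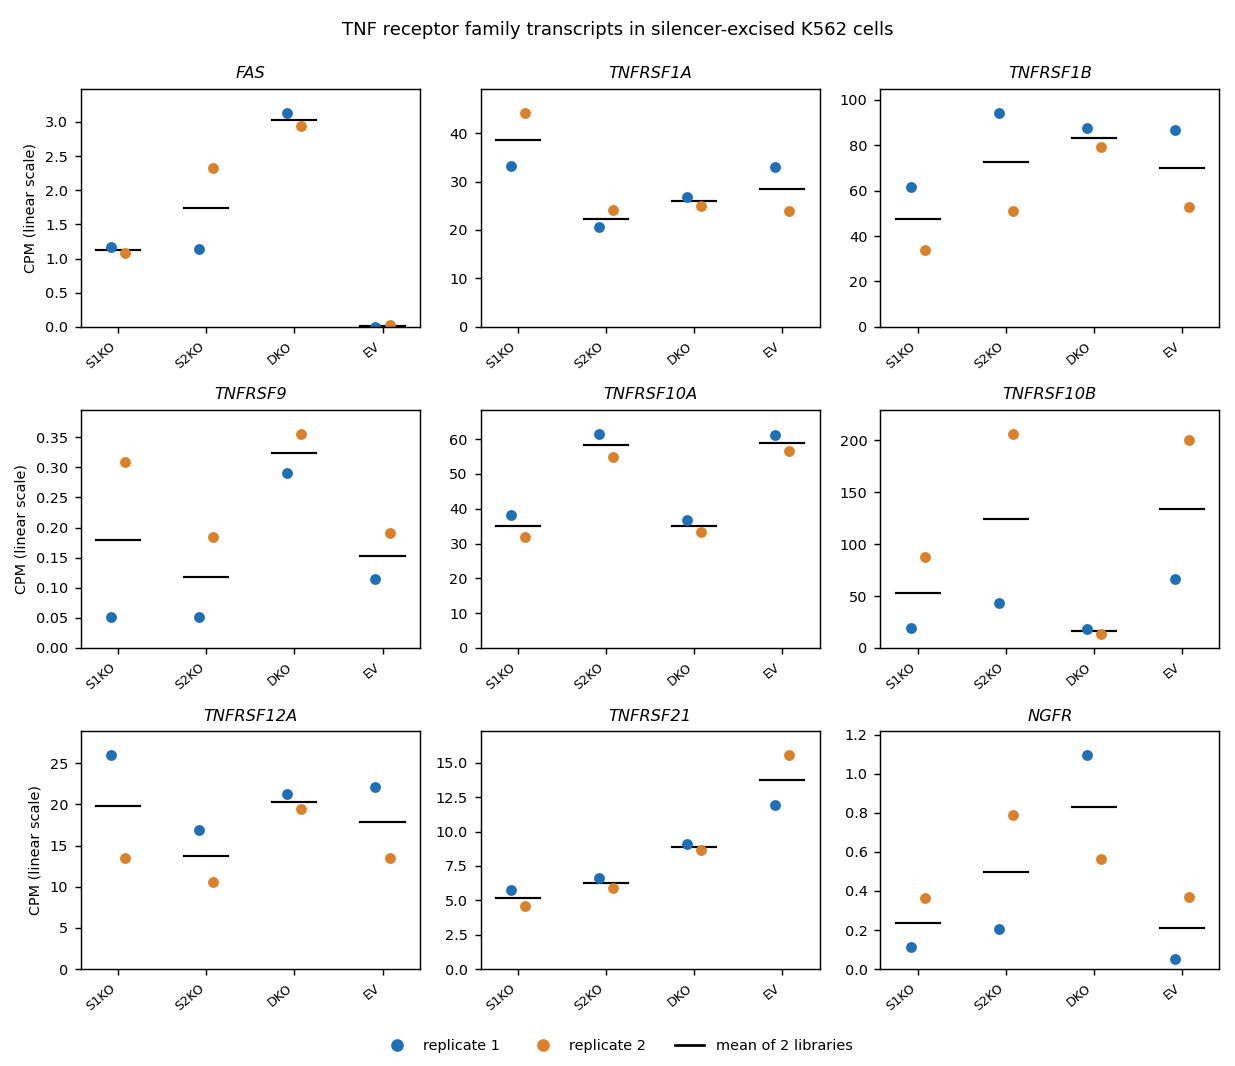
CPM of the 9 receptors in each excision-arm library (linear axes from 0, 1 point per library coloured by replicate number, bar at the mean of 2 libraries). FAS is near 0 in EV and between 1.08 and 3.13 CPM in the excised libraries, and TNFRSF10B splits by replicate number in S1KO, S2KO and EV.

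TNFRSF10B was not called in any excision comparison by the main edgeR fit, and its replicates were far apart. DESeq2, and edgeR with replicate number as a block, called it in DKO. The block fits 1 replicate shift for all 4 groups, which DKO did not share, so the block cannot decide the DKO value. TNFRSF10B had 19.0 and 87.2 CPM in S1KO, 43.0 and 206 CPM in S2KO and 18.2 and 13.6 CPM in DKO, against 66.5 and 200 CPM in EV. Replicate 2 was above replicate 1 by 4.59 times in S1KO, 4.78 times in S2KO and 3.01 times in EV, while in DKO the ratio was 0.751. The log2 difference from EV was -3.07 ± 1.02 in DKO and -1.33 ± 0.95 in S1KO. Within replicate 1 alone, S1KO, S2KO and DKO had 19.0, 43.0 and 18.2 CPM against 66.5 CPM in EV. TRIB3, a target of the ATF4 and CHOP factors, had 126 and 572 CPM in S1KO, 130 and 578 CPM in S2KO and 120 and 127 CPM in DKO, against 135 and 478 CPM in EV. CHAC1, another target, was 11.6, 8.89 and 5.24 times higher in replicate 2 of S1KO, S2KO and EV, and 1.15 times in DKO. All 9 stress response genes were higher in replicate 2 of S1KO, S2KO and EV, and the part of this difference in the TNFRSF10B values was not tested. None of the 9 was called in edgeR in S1KO, S2KO or DKO, with 0 at an unadjusted p under 0.05 and 0 called by DESeq2 in each.

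**Figure D5:**
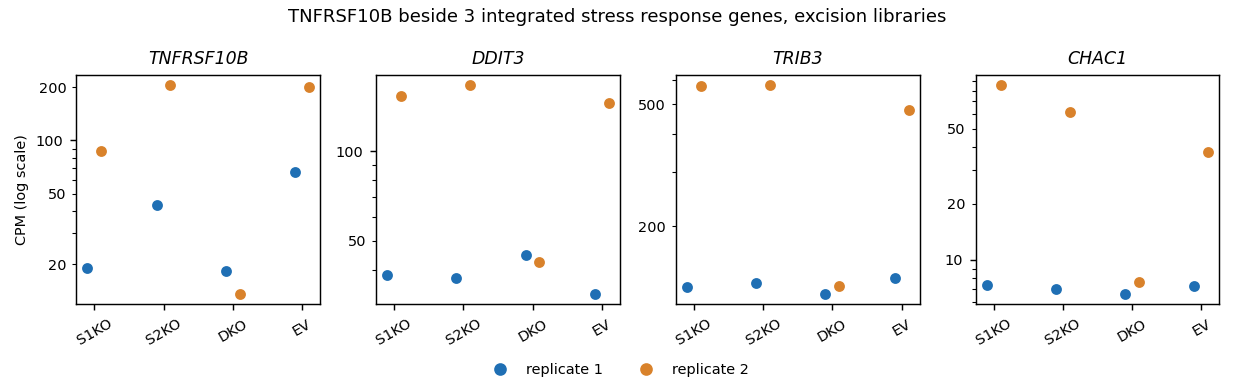
CPM (log axis) of TNFRSF10B, DDIT3, TRIB3 and CHAC1 in the 8 excision-arm libraries, 1 point per library coloured by replicate number. In S1KO, S2KO and EV replicate 2 lies above replicate 1 for each gene, and the DKO libraries lie together.

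TNFRSF10A and TNFRSF21 were lower in some excised groups. TNFRSF10A had 38.1 and 31.9 CPM in S1KO, 61.4 and 54.9 CPM in S2KO and 36.7 and 33.2 CPM in DKO, against 61.2 and 56.7 CPM in EV. S1KO and DKO did not overlap EV, and S2KO did. The log2 difference was -0.75 ± 0.16 in each of S1KO and DKO, called by edgeR in DKO and by DESeq2 in both. With replicate number as a block, edgeR called the S1KO value too. The DKO call was lost with any of the 4 libraries left out. TNFRSF21 had 5.78 and 4.58 CPM in S1KO, 6.64 and 5.91 CPM in S2KO and 9.09 and 8.67 CPM in DKO, against 11.95 and 15.6 CPM in EV. All excised libraries lay under both EV libraries, and the groups did not overlap one another. The log2 difference was -1.41 ± 0.23 in S1KO, called, and -1.13 ± 0.23 in S2KO and -0.63 ± 0.23 in DKO, not called (DESeq2 called the S2KO value). The S1KO call was lost with the DKO libraries left out of the fit and with either S1KO library or EV replicate 2 left out.

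The other receptors were not called after excision. TNFRSF1A had 33.2 and 44.1 CPM in S1KO, 20.6 and 24.0 CPM in S2KO and 26.9 and 24.9 CPM in DKO, against 33.0 and 23.9 CPM in EV. TNFRSF1B had 61.6 and 33.8 CPM in S1KO, 94.2 and 51.0 CPM in S2KO and 87.4 and 79.4 CPM in DKO, against 86.9 and 52.9 CPM in EV. Outside DKO, replicate 1 of TNFRSF1B was the higher in each group, opposite to TNFRSF10B. TNFRSF12A ranged between 10.6 and 26.0 CPM over the 8 libraries. TNFRSF9 had at most 29 estimated counts in any library and NGFR at most 64. Their log2 differences in DKO were 1.07 ± 0.89 and 1.96 ± 1.04, neither called. In EV the receptors ordered per length as TNFRSF10B (29.5 TPM on average), TNFRSF10A (16.2), TNFRSF1B (13.3), TNFRSF1A (12.5), TNFRSF12A (12.2) and TNFRSF21 (2.58). The EV libraries overlapped between each of the first 4 and the next, and those of TNFRSF21 lay below all of these. In the TNFRSF1A gene the transcript TNFRSF1A-201 held 50.4% of TPM in DKO and 57.8% in EV, a difference of -7.36 percentage points with a pooled SD of 0.82 (n = 2 each). From estimated counts that difference was -2.77 points. The S2KO libraries held 50.1% and 77.2% of TPM in this transcript, with a pooled SD against EV of 13.6, so libraries of 1 group can differ by more.

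None of the 9 NF-kB genes was called after excision. edgeR called 0 in S1KO, S2KO and DKO, with 0, 2 and 1 at an unadjusted p under 0.05 and 0 by DESeq2 in each. RELB was under 0.75 CPM in all 8 excision libraries. Of the adaptors, IKBKB, a kinase of the NF-kB pathway, had 26.8 and 27.3 CPM in DKO against 61.3 and 53.1 CPM in EV, a log2 fall of 1.08 ± 0.15 (edgeR adjusted p = 0.007). FASLG had 11 and 9 estimated counts in DKO against 1 and 4 in EV, and was not called (edgeR adjusted p = 0.11).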

How the data were processed

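RNA was measured in 20 K562 libraries made with a stranded total RNA kit after ribosomal RNA removal, per the labels' protocols. For the 12 drug-arm libraries the authors deposited read counts per gene, of which the reverse-strand column was used here. For the 8 excision-arm libraries the authors deposited kallisto estimated counts and TPM per transcript; these were summed per gene here and the sums rounded. Trimmomatic 0.38, STAR 2.7.3a, kallisto 0.44.0 and the build hg19 are named in the submitters' processing notes, and the annotation release is not given in the sources used here.

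Each arm was fitted separately over all genes with edgeR 4.0.16 in R 4.3.3 (filterByExpr, TMM, robust quasi-likelihood test, Benjamini-Hochberg adjustment), with all groups of the arm sharing their spread. In the drug libraries 19224 genes were tested, and 21284 in those of the excisions. A standard error is the log2 fold change divided by the square root of F. With 2 libraries a group, an exact permutation test cannot go below p = 0.333, so none was used. Counting intervals and floors cover counting error only, since reads without molecular identifiers are not independent molecules. The scripts were tested on simulated data. The members, gene lists and comparisons were chosen with earlier results of these data known. Named genes are the 9 members, up to 4 called genes of each other list with the lowest p in each comparison, and the genes most like a member in pattern; CHAC1, FASLG and TNFSF10 were named after their values were seen. Some genes that this rule names are not reported here. Alternatives were DESeq2 1.42.0, other size factors, no filter, other sets of libraries, a GC correction, unstranded counts, a replicate block and leaving out each library. No genome or annotation of build hg19 was used here, so gene coordinates are not given in that build.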

Additional observations from a re-analysis of the deposited data

Results flagged for a closer look

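Effects on a member that differed between drugs or times by a test of the difference itself are listed here as log2 values from edgeR. The members were chosen with these values known, so the values are a description.

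In the interaction of GSK343 and X5050 at 72 h, the combination lay below the sum of the single-drug effects for TNFRSF1A (-1.06), TNFRSF21 (-1.16) and TNFRSF1B (-0.75).

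Between 24 h and 8 h of both drugs, the effect over DMSO differed by 2.76 for TNFRSF9, 2.86 for FAS, 1.59 for TNFRSF12A, 1.10 for TNFRSF1A, 1.03 for TNFRSF10B and 0.59 for TNFRSF21, and by -3.29 for NGFR. Between 72 h and 24 h it differed by 0.80 for TNFRSF9, and by -1.93 for FAS, -1.51 for TNFRSF21, -0.72 for TNFRSF1A and -0.47 for TNFRSF10A. The 8 h and 24 h libraries also have the lower share of reads mapped to several places, so the differences between 24 h and 72 h and this set of libraries cannot be told apart.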

How the results depend on the processing

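Of 53 calls on members, 40 held in every alternative run, 13 were lost in some, 12 of them with 1 library left out, and no called value changed sign. The members called with X5050 fell to 3 with only the 72 h groups fitted and 3 with only the groups compared. They became 5 at 72 h against DMSO with unstranded counts, 5 at 72 h against GSK343 with only the groups compared, 3 at 72 h against X5050 with only the 72 h groups, and 5 for the interaction with no filter. In S1KO they were 1 with the DKO libraries left out and 1 with only the groups compared; in S2KO 2 with DESeq2 and 0 with only the groups compared (edgeR); and in DKO 1 with only the groups compared. With 1 library left out the members called ranged over 3 to 5 with X5050, 2 to 6 at 72 h against X5050, 1 to 2 in S1KO and 1 to 1 in DKO. They were 2 at 72 h against X5050 without replicate 1 of both drugs at 72 h, 3 with X5050 against DMSO without X5050 replicate 1, and 1 in DKO without any 1 of its 4 libraries. The fits with only the 72 h groups, or without DKO, were chosen after seeing the data.

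Isoform shares from estimated counts moved to 4.17 points for TNFRSF10B-201 in DKO (2.30 from TPM), 1.92 for TNFRSF12A-201 in S2KO (0.19) and -2.77 for TNFRSF1A-201 in DKO (-7.36). The causes were not tested. Genes called in all were 1865 in DKO (3387 by DESeq2), 781 in S1KO (1815 by DESeq2, 301 with only the groups compared) and 427 in S2KO (1140 and 0). They were 2390 with GSK343 (1118 with only the groups compared), 2415 with X5050 (617) and 3613 for the interaction (2314). With 1 library left out, GSK343 calls were 4287 and 1151 without DMSO replicate 1 and 2, and 1449 and 739 without GSK343 replicate 1 and 2. X5050 calls were 815 without X5050 replicate 1, and interaction calls 2296 without replicate 1 of both drugs and 2391 without GSK343 replicate 2. DKO calls were 526 and 528 without DKO replicate 1 and 2 and 924 without EV replicate 2. S1KO calls were 262 and 249 without S1KO replicate 1 and 2 and 446 and 394 without EV replicate 1 and 2, and S2KO calls were 157 and 169 without EV replicate 1 and 2 and 226 without S2KO replicate 2.

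Same-numbered libraries correlated between -0.05 and 0.21 in 15 pairs of drug groups. In 6 pairs of excision groups they correlated between -0.07 and 0.58. The main fits did not pair libraries by number. The excision pairs include those with DKO, whose replicates did not stand apart, so their range does not describe S1KO, S2KO and EV alone. A replicate difference shared by those groups stays in the spread of the main fits, and its part in the genes not called was not tested. With a replicate block the members called were 4 with X5050, 3 in S1KO (TNFRSF10A added) and 3 in DKO (TNFRSF10B added), and the genes called were 3172 in DKO, 1348 in S1KO and 716 in S2KO. In the excision arm the block fits 1 shift for all groups. The DKO replicates did not show that shift, so the block's DKO calls carry this limit.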

Other observations

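A few other receptors and ligands were called in S1KO and DKO. TNFRSF14 had 92 and 121 estimated counts in S1KO and 79 and 33 in DKO, against 10 and 12 in EV. EDA2R, the ectodysplasin A2 receptor, rose by 2.13 in DKO on the log2 scale. TNFRSF8 fell by 1.76 in S1KO and 1.02 in DKO. The B cell survival ligand TNFSF13B (BAFF) rose by 3.03 ± 0.28 in S1KO and 3.49 in DKO (edgeR adjusted p = 0.0029 and 0.0011). Of 12 tested receptors that are not members, 1 rose and 1 fell in S1KO, and 2 rose and 1 fell in DKO, beside 3.67% and 8.76% of all genes called. Of 10 tested ligands 1 rose in each. In S2KO edgeR called 0 receptors and 0 ligands, with 4 and 2 at an unadjusted p under 0.05 and 1 and 2 called by DESeq2.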
